A study of Mus musculus with 8 samples.

Results

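Mcm6, Tipin, Atad2 and Nasp are 4 genes of DNA replication, followed here through growth factor withdrawal in cultured mouse hippocampal neural progenitor cells. They are 4 of the 9140 genes measured. They were chosen by their weights on the second principal component of cell-cycle genes, computed from the expression values of the day 0 cells, so their behaviour along the cell cycle at day 0 is given as a description. The cells came from the dentate gyrus of embryos of C57BL/6J females mated to Kmt2d+/βgeo males. The labels give embryonic day 18, and the study's methods a day earlier. One group carries the allele Mll2Gt(RRt024)Byg beside a normal copy of Kmt2d and is called Kmt2d+/βgeo. The other is labelled C57BL/6J with a wildtype allele, the growth protocol calls it littermate, and it is called wild type here. Both were kept undifferentiated with EGF and FGF2 (day 0), and were collected again 2, 4 and 8 days after these factors were removed. There is 1 library for each genotype and day, 8 in all, so a culture cannot be told apart from its genotype or its day. No test between libraries was run, and every interval below covers counting error only.

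Before a cell copies its DNA, rings of MCM proteins are loaded at replication origins, and they unwind the double helix once S phase starts. The moving fork is held together by stabilising proteins, and new histones are delivered behind it to wrap the copied strands. Genes for these steps are switched on together as cells leave G1, largely by E2F transcription factors, and are turned down as cells stop dividing. Mcm6 encodes a subunit of the MCM helicase. Tipin encodes the partner of Timeless in the fork protection complex. Atad2 encodes a chromatin-bound ATPase with a bromodomain, and Nasp a chaperone that stores and carries histone H3 and H4. Top2a, a topoisomerase that peaks in G2 and mitosis, served as the marker of cells further along the cycle.

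On GRCm38, Mcm6 (ENSMUSG00000026355) lies on the minus strand at chr1:128331590-128359664 and has up to 17 exons. Tipin (ENSMUSG00000032397) lies on the plus strand at chr9:64281581-64305424, with up to 8 exons. Atad2 (ENSMUSG00000022360) lies on the minus strand at chr15:58094044-58135082, with up to 28 exons, and Nasp (ENSMUSG00000028693) on the minus strand at chr4:116601052-116627941, with up to 16. All are protein coding. The gene Atad2b, a relative of Atad2, has a row of its own, whereas the processed pseudogene Nasp-ps1 and the small RNA gene Gm24289 inside Tipin were not analysed here. Tags from a near-identical pseudogene could be split from those of Nasp by the counting, so the Nasp values carry that uncertainty.

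RefSeq promoters, from 250 bases before to 50 bases after the gene start, were found for 2 of the 4 genes, Mcm6 and Nasp. They are shown because the genes fell together after day 0, and because E2F, NF-Y (CCAAT) and CHR elements are the usual elements of cell-cycle promoters. Capitals mark matches, on either strand, to the E2F words TTTGGCGC, TTTCCCGC, TTTGCCGC and TTTCGCGC, to CCAAT and to the CHR word TTTGAA. The Mcm6 window is chr1:128359656-128359955 and the Nasp window chr4:116627902-116628201, both GRCm38.p6 and both written 5′ to 3′ on the minus strand.
Mcm6: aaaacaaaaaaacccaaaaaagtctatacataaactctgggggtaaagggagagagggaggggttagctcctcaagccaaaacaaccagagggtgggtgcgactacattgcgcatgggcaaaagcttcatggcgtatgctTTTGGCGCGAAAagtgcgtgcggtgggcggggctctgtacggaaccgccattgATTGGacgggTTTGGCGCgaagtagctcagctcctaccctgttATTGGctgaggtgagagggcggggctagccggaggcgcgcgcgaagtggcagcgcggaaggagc
Nasp: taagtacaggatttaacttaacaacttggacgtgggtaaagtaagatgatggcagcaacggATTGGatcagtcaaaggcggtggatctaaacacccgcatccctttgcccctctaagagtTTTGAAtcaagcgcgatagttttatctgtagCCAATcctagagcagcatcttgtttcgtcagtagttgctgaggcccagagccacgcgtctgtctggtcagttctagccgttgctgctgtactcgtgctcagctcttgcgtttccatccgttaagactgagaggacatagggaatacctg
The Mcm6 window held 3 E2F matches, starting at -110, -106 and -47 from the RefSeq start, and the first 2 of these overlap. It also held 2 CCAAT matches, at -57 and -14. The Nasp window held 2 CCAAT matches, at -189 and -99, and 1 CHR match at -130, with 0 E2F matches among these letters. Over 32851 RefSeq promoters of the same length, 2.26% held an E2F word, 37.4% a CCAAT and 17.9% a CHR word.

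The libraries held 2534 to 4900 cells each. Median UMIs per cell on the matrix genes (a UMI marks 1 captured RNA molecule) ran from 6989 to 11230, apart from 3972 in the Kmt2d+/βgeo library of day 8. Of 9 neural progenitor markers listed 4 were in the matrix, and Nes and Sox2, which define these cells, were not analysed here. Any pair of libraries shared 0 to 10 cell barcodes. Between the day 4 libraries, 0 of 7459 genes differed by a log2 ratio of 1 or more, unlike at any other day, so the genotype labels at day 4 are in doubt and ranges over days are also given without them. Kmt2d itself, the gene with the altered allele, had pooled log2 ratios, Kmt2d+/βgeo over wild type, from -0.19 at day 2 to 0.30 at day 4. Where the gene trap lies relative to the 3′ tags was not found in the labels or methods, so this does not check the labels.

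All 4 genes were at their highest at day 0 in both genotypes and fell by day 2. Levels are mean normalised counts per cell, in which every cell is scaled to the same sum over the matrix genes, so each gene is compared only with itself. The Mcm6 level was 0.803 in Kmt2d+/βgeo and 0.700 in wild type cells at day 0. Day 2 gave 0.189 and 0.141, day 4 gave 0.161 and 0.164, and day 8 gave 0.0818 and 0.159. The helicase gene thus had its high values in the day 0 libraries and stayed low from day 2 on. Its log2 ratio to day 0 was -2.09, -2.32 and -3.30 at days 2, 4 and 8 in Kmt2d+/βgeo cells, and -2.31, -2.09 and -2.14 in wild type cells. The pooled UMIs give the counting precision of these ratios, for example -3.40 (95% interval -3.68 to -3.14) at day 8 in Kmt2d+/βgeo cells and -2.44 (-2.59 to -2.29) in wild type cells.

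Tipin behaved differently from the other genes after day 2. Its level was 1.21 in Kmt2d+/βgeo and 0.958 in wild type cells at day 0. Day 2 gave 0.379 and 0.303, day 4 gave 0.419 and 0.461, and day 8 gave 0.768 and 0.572. Its lowest libraries were thus those of day 2, and the day 8 libraries ranked right behind those of day 0. From day 4 to day 8 the pooled log2 ratio was 0.88 (95% interval 0.76 to 1.00) in Kmt2d+/βgeo cells and 0.30 (0.20 to 0.41) in wild type cells. Over the same step the other 3 genes had log2 ratios of mean counts from -1.66 to -0.05. All these ratios are relative to the UMIs of all matrix genes, and they start from the day 4 libraries, whose labels are in doubt. In Kmt2d+/βgeo there were 1173 estimated Tipin UMIs in 2534 cells at day 4 and 1072 in 2965 cells at day 8. In wild type there were 1584 in 3511 cells and 1512 in 3212 cells, so a rise per cell was not shown for Kmt2d+/βgeo. At day 8 Tipin was 1.58-fold below its day 0 level in Kmt2d+/βgeo cells and 1.68-fold below it in wild type cells.

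**Figure D1:**
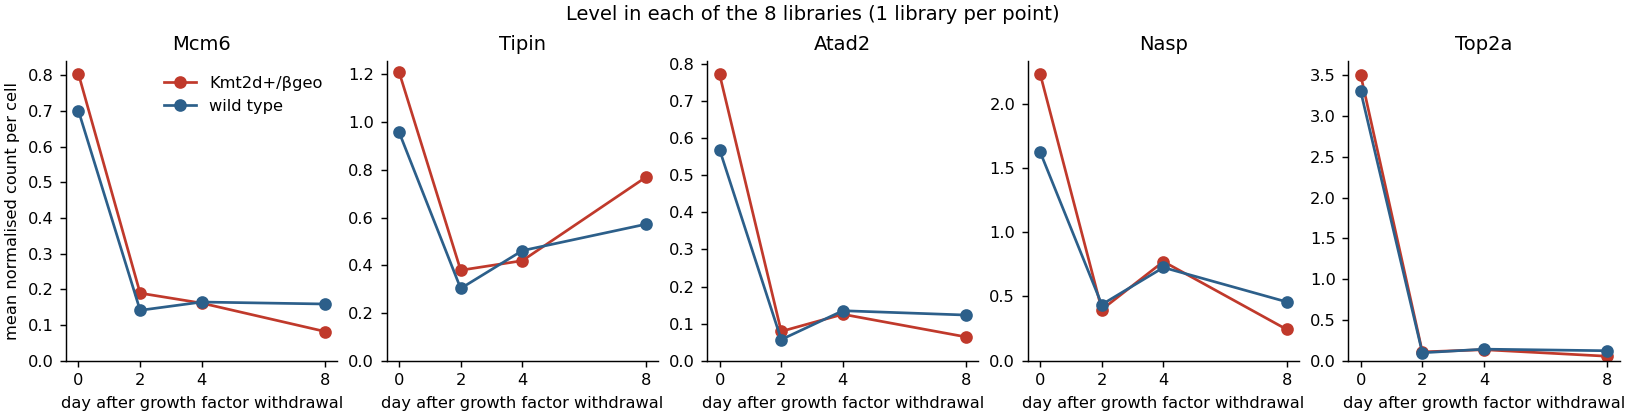
Mean normalised count per cell (vertical axis, from 0) against day after growth factor withdrawal, 1 panel per gene, for Kmt2d+/βgeo (red) and wild type (blue), with 1 library per point. Every gene is highest at day 0, and Tipin stands at 0.768 and 0.572 at day 8, above its day 2 values of 0.379 and 0.303.

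Atad2 had the lowest day 2 values relative to day 0 of the 4 genes. Its level was 0.772 in Kmt2d+/βgeo and 0.569 in wild type cells at day 0. Day 2 gave 0.0791 and 0.0570, day 4 gave 0.125 and 0.135, and day 8 gave 0.0641 and 0.123. This is a 9.77-fold fall by day 2 in Kmt2d+/βgeo cells and a 9.99-fold fall in wild type cells. By day 4 the chromatin ATPase gene was above its day 2 level under both genotype labels, which are in doubt at day 4. The log2 ratio was 0.66 in Kmt2d+/βgeo and 1.24 in wild type cells. The wild type value was the only one of the 4 genes past a log2 ratio of 1 between days 2 and 4, a step at which 2.98% of genes were higher by as much in wild type and 5.3% in Kmt2d+/βgeo cells.

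The Nasp level was 2.23 in Kmt2d+/βgeo and 1.62 in wild type cells at day 0. Day 2 gave 0.398 and 0.437, day 4 gave 0.771 and 0.725, and day 8 gave 0.243 and 0.458. The histone chaperone gene was thus higher at day 4 than at day 2 or day 8 under both genotype labels. With the day 4 labels in doubt, this does not show a day 4 rise in each genotype. Its pooled log2 ratio from day 2 to day 4 was 0.97 (95% interval 0.88 to 1.07) in Kmt2d+/βgeo cells and 0.77 (0.68 to 0.86) in wild type cells. From day 4 to day 8 it was -1.61 (-1.78 to -1.45) and -0.66 (-0.76 to -0.56).

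Counted over the genes, 4 of 4 were lower by a log2 ratio of 1 or more at day 2 in Kmt2d+/βgeo cells, where 6.74% of all genes tested were, and 4 of 4 in wild type cells, where 5.56% were. At day 4 the counts were again 4 of 4 in Kmt2d+/βgeo, against 6.61% of genes, and 4 of 4 in wild type cells, against 6.6%. At day 8 they were 3 of 4 in Kmt2d+/βgeo, against 13.9% of genes, and 3 of 4 in wild type cells, against 10.9%, with Tipin as the exception in both. The 4 genes were chosen from day 0 values, which are also the base of these ratios, so these counts are a description. They also depend on the scale. By the difference of mean log2 values, which compresses sparse genes, 1, 0 and 1 of 4 were lower by 1 or more on days 2, 4 and 8 in Kmt2d+/βgeo cells, beside 0.706%, 0.952% and 2.49% of all genes. In wild type cells 0 of 4 were on each day, beside 0.429%, 0.970% and 1.65%. The median log2 ratio of the 4 genes at day 8 was -3.25 in Kmt2d+/βgeo and -1.98 in wild type cells, and that of all genes tested 0.11 and 0.04. Top2a fell further, with log2 ratios to day 0 from -5.99 to -4.54 over the later libraries.

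Ordered by their share of pooled UMIs, both day 0 libraries led for each of the 4 genes, the Kmt2d+/βgeo one first, and their counting intervals did not overlap. Among the later libraries the order of Mcm6 could mostly not be told from counting error, since neighbours from the third to the seventh rank overlapped. For Tipin only the day 4 libraries overlapped with each other.

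The fall was seen in how many cells had a UMI. The mean number of UMIs in such a cell fell too. For sparse counts that mean nears its lowest possible value whenever the level falls, so it is no separate result. Because the share of cells with a UMI depends on depth, each cell was thinned to 3000 UMIs. The Mcm6 share was 21.2% of Kmt2d+/βgeo and 18.2% of wild type cells at day 0. It was 6.16% and 4.66% on day 2, 4.93% and 5.01% on day 4, and 3.12% and 4.68% on day 8. Before thinning it was 45.9% and 39.7% at day 0, and 3.74% and 9.90% at day 8. Tipin was found in 28.7% and 24.4% of cells on day 0, in 12.4% and 10.2% on day 2, in 12.8% and 15.4% on day 4, and in 22.9% and 17.6% on day 8. At this depth its day 8 shares were above its day 2 and day 4 shares, in Kmt2d+/βgeo cells after 757 of 2965 cells were left out as shallower. Before thinning the Kmt2d+/βgeo share was 29.7% on day 2, 35.8% on day 4 and 29.6% on day 8, in the shallowest library. The wild type share was then 23.1%, 34.5% and 37.0%.

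Atad2 was found in 18.7% of Kmt2d+/βgeo and 13.9% of wild type cells at day 0, in 2.08% and 1.76% at day 2, in 3.83% and 4.02% at day 4, and in 1.99% and 3.52% at day 8. Nasp was found in 46.1% and 36.8% at day 0, in 12.6% of both at day 2, in 23.2% and 21.0% at day 4, and in 8.02% and 13.2% at day 8. Unthinned, the Nasp share was 75.6% and 65.1% at day 0. Among cells with a Nasp UMI the mean was 1.67 and 1.55 UMIs at day 0, against 1.05 to 1.23 at later days. Tipin had 1.16 and 1.10 UMIs per such cell at day 8, against 1.40 and 1.31 at day 0, and 1.05 to 1.12 on days 2 and 4.

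**Figure D2:**
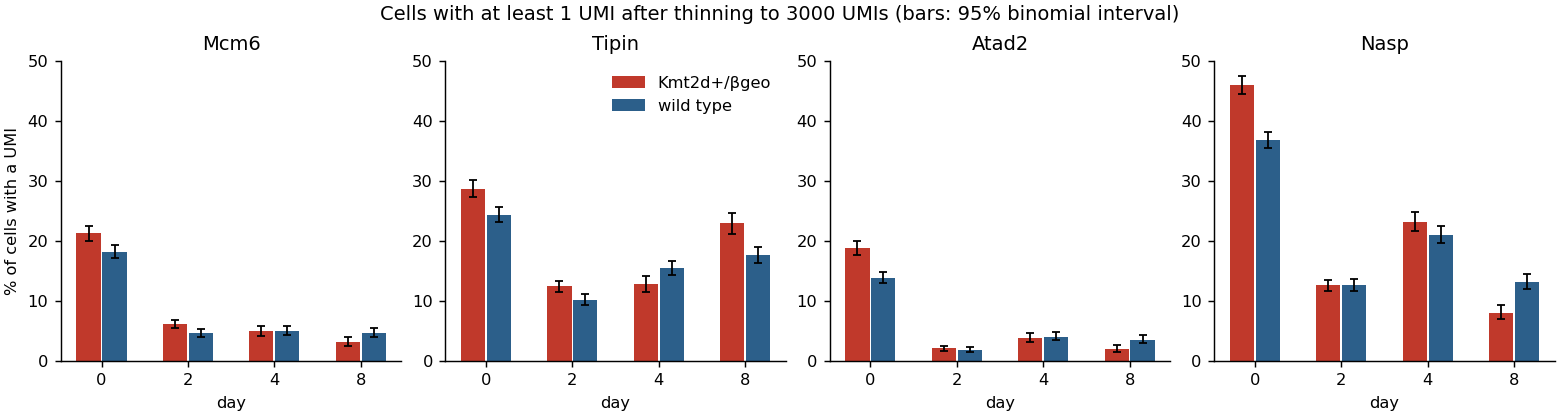
Share of cells with at least 1 UMI (vertical axis, percent) by day, 1 panel per gene, for Kmt2d+/βgeo (red) and wild type (blue) cells thinned to 3000 UMIs; black bars are 95% binomial (Clopper-Pearson) intervals. Nasp reaches 46.1% and 36.8% at day 0, and Tipin is the gene whose day 8 bars (22.9% and 17.6%) stand above its day 2 and day 4 bars.

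Free RNA can place UMIs in cells that do not express a gene, so cells with a UMI of Rbfox3, a gene of post-mitotic neurons, were used as a comparison. They were few, 7 and 27 at day 0 and 54 to 189 at later days. A Top2a UMI was found in 1 of the 7 and 7 of the 27 at day 0, and in at most 2.65% at later days. The Rbfox3 cells of day 0 thus did not lack cell-cycle genes. At day 8 in wild type cells, 54 such cells had a median of 6238 UMIs against 6989 in the library. Mcm6 was found in 4.11% of Rbfox3 cells in the Kmt2d+/βgeo library and 3.70% in wild type at day 8, and its shares in all cells lay inside the intervals of the Rbfox3 shares in every library. The same held for 30 of the 32 values of the 4 genes over the 8 libraries, the 8 values of day 0 among them, so this comparison did not set a background level for any of the genes. The exceptions were Tipin and Nasp at day 4 in Kmt2d+/βgeo cells. For Tipin at day 8 the Rbfox3 cells held 23.3% and 13.0%. For Atad2 at day 8, 0 of 73 Rbfox3 cells had a UMI in Kmt2d+/βgeo (95% interval up to 4.93%), and 5.56% did in wild type. For Nasp at day 4 they held 40.3% (95% interval 31.9 to 49.1) in Kmt2d+/βgeo cells, above the 23.2% of the whole library, and 21.2% in wild type cells. Neuron, astrocyte and progenitor marker lists also moved between days, and their part in the changes of the 4 genes was not tested. Of the 3 neuron markers in the matrix, 2 were higher by a log2 ratio of 1 or more at day 4 over day 0 in each genotype, as were 14.8% of all genes in Kmt2d+/βgeo and 11.9% in wild type cells. Of 5 astrocyte markers 3 were, and of 4 progenitor markers 1 was. On day 2, where 10.7% and 8.08% of all genes were higher, 1 of 5 astrocyte markers was in Kmt2d+/βgeo and 5 of 5 were in wild type cells. The progenitor counts were 2 of 4 and 1 of 4, and the neuron counts 1 of 2 in each. On day 8, where 19.0% and 16.3% of all genes were higher, the neuron counts were 2 of 3 and 1 of 2. The astrocyte counts were then 2 of 5 and 3 of 5, and the progenitor counts 1 of 4 and 2 of 4. In Kmt2d+/βgeo cells 1 progenitor marker was lower by as much, as were 13.9% of all genes.

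Genotype differences did not have 1 direction over the days or the genes. None of the 4 genes was past a log2 ratio of 1 between genotypes at any day, where 0.674% of genes were higher and 0.871% lower in Kmt2d+/βgeo cells at day 0. These background shares were 1.68% and 1.15% on day 2, 0% and 0% on day 4, and 2.06% and 2.81% on day 8. At day 0 all were somewhat higher in Kmt2d+/βgeo cells, by a log2 ratio of 0.20 for Mcm6, 0.34 for Tipin, 0.44 for Atad2 and 0.46 for Nasp, beside 0.08 for Top2a. Median log2 ratios of the gene lists described below were 0.29 for nucleotide supply, 0.28 for polymerases and clamp, and 0.22 for histone supply. They were 0.22 for G2 and mitosis, 0.21 for origin licensing, 0.14 for fork protection, -0.03 for E2F and -0.16 for cell-cycle exit genes. All genes tested had a median of -0.04. At day 2 Mcm6 stood at 0.42 and Tipin at 0.32, whereas Nasp stood at -0.13. On day 4 the values ran from -0.14 for Tipin to 0.09 for Nasp. At day 8 Mcm6 stood at -0.96, Atad2 at -0.94 and Nasp at -0.91, whereas Tipin stood at 0.43. Top2a stood at -1.15 there, at -0.74 with cells at equal depth and at -0.71 from pooled UMIs, so it did not stay past 1. The 5 astrocyte markers were also below 0 between genotypes at day 8, with a median log2 ratio of -0.82. At day 2, where Mcm6 and Tipin were above 0, 4 of 5 were below 0, with a median of -0.73. On days 0 and 4 the median was -0.07 and 0.07. The part of these markers in the genotype differences was not tested.

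These day 8 values rest on the shallow Kmt2d+/βgeo library, in which thinning left out 757 of 2965 cells. With cells at equal depth the log2 ratios were -0.76, -0.92, -0.92 and 0.46 for Mcm6, Atad2, Nasp and Tipin. Over the 4 days the Tipin ratio ran from -0.14 to 0.43, and without the day 4 libraries from 0.32 to 0.43. For Mcm6 and Nasp the ranges, -0.96 to 0.42 and -0.91 to 0.46, were the same without day 4. Atad2 was below a mean of 0.1 in both libraries at day 2 and was not compared there on means.

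At day 0 all 4 genes were found more often in cells that also had a Top2a UMI. In thinned Kmt2d+/βgeo cells, 1626 of 4308 had a Top2a UMI, and in wild type cells 1664 of 4857. Mcm6 was found in 29.1% of the Top2a cells and 16.5% of the others in Kmt2d+/βgeo, and in 28.7% and 12.7% in wild type. Tipin was found in 41.9% and 20.8% of them in Kmt2d+/βgeo, and in 37.9% and 17.4% in wild type. Atad2 had the largest ratio of shares, with 33.4% against 9.84% (3.39 times) in Kmt2d+/βgeo and 28.7% against 6.17% (4.65 times) in wild type. Nasp was found in 61.1% against 37.0%, and in 52.7% against 28.5%. Of the cells with Atad2, 67.3% and 70.8% also had Top2a, whereas for Mcm6 this was 51.7% and 54.1%.

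Across day 0 cells the Pearson correlation of log2 values with Top2a was 0.282 and 0.340 for Mcm6, 0.416 and 0.441 for Tipin, 0.433 and 0.448 for Nasp, and 0.497 and 0.549 for Atad2, over 4331 Kmt2d+/βgeo and 4857 wild type cells. The cells of a library share its culture and its sequencing run, so these describe the libraries only. By this correlation Atad2 is nearest to Top2a and Mcm6 farthest, in both libraries. The values of these same cells chose the genes, so this order is a description only. By the ratio of shares Nasp was the lowest, at 1.65 times in Kmt2d+/βgeo and 1.85 times in wild type cells.

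**Figure D3:**
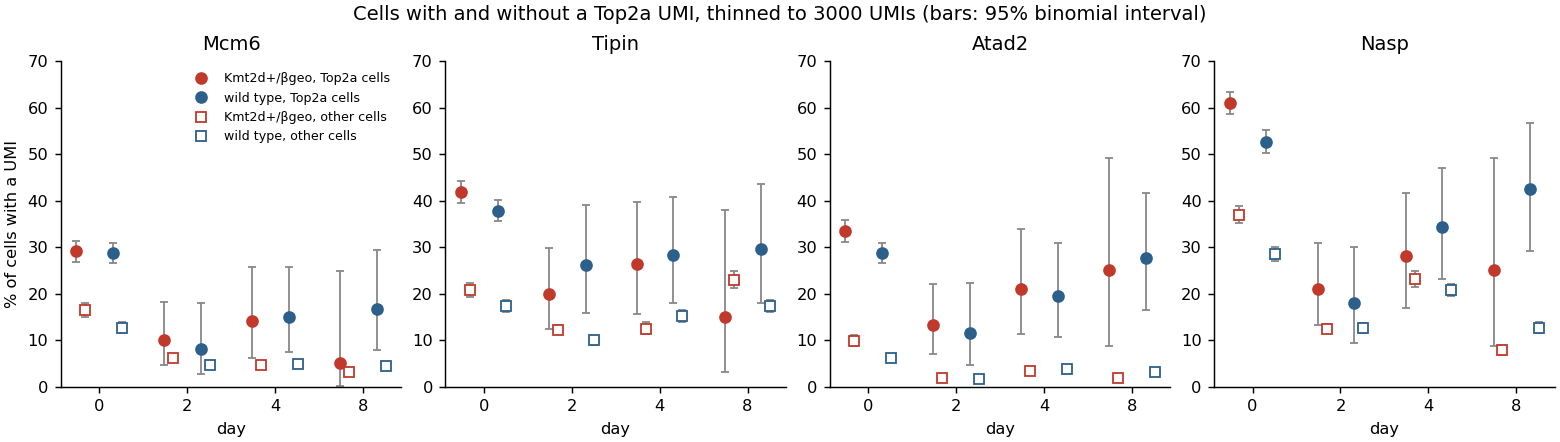
Share of cells with a UMI of each gene (vertical axis, percent) among cells with a Top2a UMI (filled circles) and without one (open squares), by day, for Kmt2d+/βgeo (red) and wild type (blue), thinned to 3000 UMIs; grey bars are 95% binomial intervals. The circles lie above the squares of the same library except for Tipin in Kmt2d+/βgeo cells at day 8, where 20 cells had Top2a.

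After day 0 only 20 to 90 cells per library had a Top2a UMI. The Atad2 difference between Top2a cells and the others stayed above 0, with its interval, in all 6 later libraries, from 9.87 to 24.7 percentage points. The interval lay above 0 in 5 of 6 later libraries for Tipin, 4 of 6 for Nasp and 3 of 6 for Mcm6. For Mcm6 these were both day 4 libraries and wild type at day 8. All counts of later libraries, here and below, include both day 4 libraries. Those differed by a log2 ratio of 1 in 0 of 7459 genes and may not be separate cultures. With no thinning the Mcm6 count was 6 of 6, but finding a UMI of Top2a and of Mcm6 then both depend on the depth of the cell. Thinned to 1500 UMIs the Mcm6 count was 4 of 6, with the Kmt2d+/βgeo difference of day 4 at -2.92 points. With cells of at least 2 Top2a UMIs against those with none, the differences were larger for every gene and later library other than Tipin in Kmt2d+/βgeo cells at day 8. Atad2 then ran from 32.9 to 55.4 points over the later libraries, with the interval above 0 in 6 of 6, and the counts were 6 of 6 for Nasp, 5 of 6 for Mcm6 and 5 of 6 for Tipin. These rest on 7 to 23 such cells per library. Tipin in Kmt2d+/βgeo cells at day 8 gave -7.99 points (95% interval -17.9 to 13.1), with 15.0% of Top2a cells against 23.0% of the others. With no thinning that difference was 8.76 points, and with the cut at 2 Top2a UMIs it was -8.70 points, so its direction was not settled.

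The day 0 cells, whose values chose the genes, were grouped by their Top2a UMIs to describe where each gene was most often found. In Kmt2d+/βgeo cells the Mcm6 share was 16.5%, 27.3%, 37.3%, 33.5% and 23.1% at 0, 1, 2, 3 to 4 and 5 or more Top2a UMIs. In wild type cells it was 12.7%, 20.9%, 34.7%, 46.8% and 26.7%. The helicase gene was thus most frequent in cells with intermediate Top2a and less so in those with the most. Nasp went from 37.0% to 71.1% at 3 to 4 Top2a UMIs in Kmt2d+/βgeo cells and was 60.1% at 5 or more. In wild type cells it went from 28.5% to 63.3% and was 61.7% at 5 or more, where the intervals overlap. Atad2 went from 9.84% to 43.6% and then 38.9%, and in wild type cells from 6.17% to 44.6% and then 36.9%. Tipin went from 20.8% to 51.3% and then 42.4%, and in wild type cells from 17.4% to 47.1% and then 42.7%. For Atad2 and Tipin the intervals of the last pair of bins overlap in both genotypes.

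**Figure D4:**
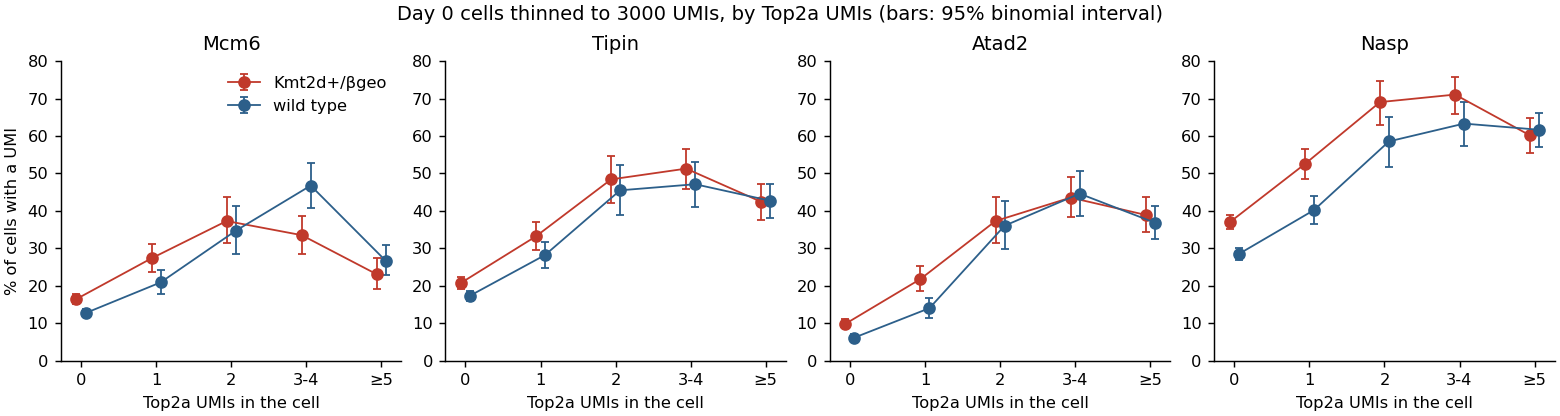
Share of day 0 cells with a UMI of each gene (vertical axis, percent) against the number of Top2a UMIs in the cell, for Kmt2d+/βgeo (red) and wild type (blue) cells thinned to 3000 UMIs; bars are 95% binomial intervals. The Mcm6 share is highest at 2 Top2a UMIs (37.3%) in Kmt2d+/βgeo and at 3 to 4 (46.8%) in wild type cells, and is 23.1% and 26.7% at 5 or more.

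The pairs of genes were found in the same cells at day 0. Tipin was found in 43.4% of the Kmt2d+/βgeo cells with Mcm6 and in 24.8% of the others, and in wild type cells in 45.8% and 19.6%. Atad2 was found in 33.9% of the Kmt2d+/βgeo cells with Tipin against 12.6% of the others, and in 27.4% against 9.50% in wild type cells. Nasp was found in 65.9% of the cells with Atad2 against 41.5%, and in 63.5% against 32.5%. In both day 0 libraries, whose values chose the genes, each was thus more frequent beside its partner. In the later libraries, with fewer UMIs of these genes, the interval of the difference lay above 0 in 5 of 6 libraries for Nasp beside Atad2, in 3 of 6 for Atad2 beside Mcm6, in 2 of 6 for Nasp beside Mcm6 and for Atad2 beside Tipin, and in 1 of 6 for Tipin beside Mcm6 and for Nasp beside Tipin. The Pearson correlation of log2 values of Mcm6 and Atad2 was 0.528 and 0.553 at day 0 and ran from 0.06 to 0.22 later.

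The number of these genes per cell also depends on how often each is found on its own, so it is given as a description. At day 0, 32.8% of Kmt2d+/βgeo cells (95% interval 31.4 to 34.2) and 24.2% of wild type cells (23.0 to 25.4) had UMIs of at least 2 of the 4. Among cells with Top2a this was 52.6% and 44.1%, and among the others 20.8% and 13.8%. In the later libraries it was 2.64% to 6.12% of all cells. All 4 at once were found in 138 and 137 cells at day 0, and in 2 to 9 cells per later library.

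The position of the genes along the cell cycle was described by θ, the angle of a cell around the origin in the plane of principal components 1 and 2 of cell-cycle genes. The sign of component 1 was set by Top2a and that of component 2 by 18 S-phase genes, so S-phase genes lie ahead of Top2a by construction and the direction is no result. The 87 genes used left out the 4 genes themselves, and the components held 31.2% and 8.37% of the variance over 9188 day 0 cells. The fitted log2 expression of Mcm6 was highest at 0.63π, of Tipin at 0.70π, of Nasp at 0.72π, of Atad2 at 0.73π, and of Top2a at 1.04π. Mcm6 was farthest from Top2a in this plane. The genes were chosen by their weights on the second component in these same cells, so this order is a description only. The other 3 were close together here, but less so with a smoothing span of 0.5 (Tipin 0.79π, Atad2 0.80π and Nasp 0.88π). The fitted curves had an R2 of 0.478 for Mcm6, 0.476 for Tipin, 0.433 for Nasp, 0.544 for Atad2 and 0.719 for Top2a. With each genotype fitted alone the positions of the 4 genes moved by at most 0.01π. Over this fit and the other ways of fitting tried, 6 in all, the Mcm6 maximum lay between 0.62π and 0.73π. When the 4 genes were kept among the 91 genes they ranked 1, 2, 3 and 6 on the second component, with weights of 0.228 for Mcm6, 0.198 for Tipin, 0.182 for Atad2 and 0.151 for Nasp. Hells and Mcm4, at 0.176 and 0.157, stood between Atad2 and Nasp, and Dut followed at 0.148.

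**Figure D5:**
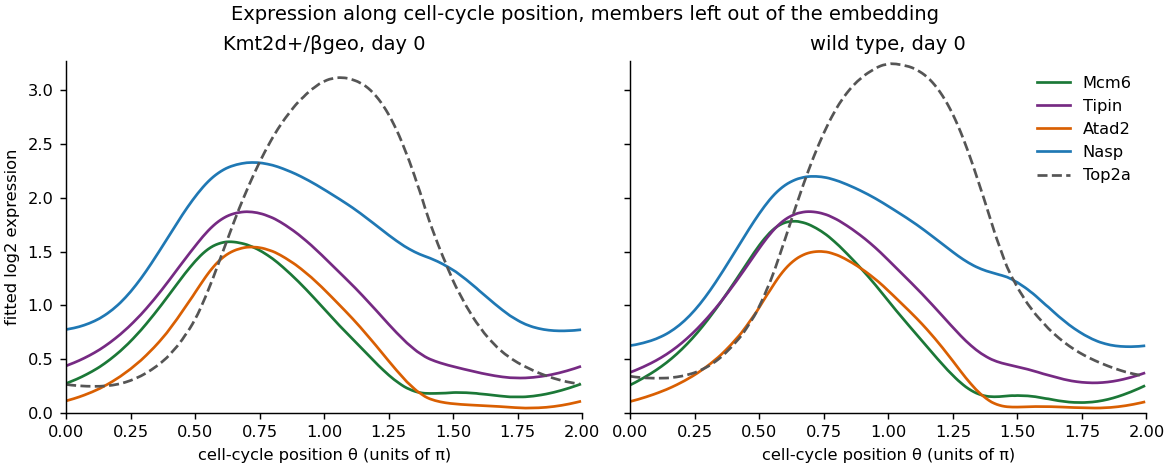
Fitted log2 expression (vertical axis) against cell-cycle position θ in units of π for day 0 cells of Kmt2d+/βgeo (left) and wild type (right), with the 4 genes left out of the embedding; Top2a is dashed. In both panels the maxima of the 4 genes lie near 0.63π to 0.73π, apart from that of Top2a at 1.06π (left) and 1.01π (right). The direction of θ was set with S-phase genes.

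Genes most like each of the 4 were looked up by the Pearson correlation of log2 values across day 0 cells, averaged over both libraries, among 6769 other genes. For Mcm6 the leading genes were Atad2 (0.541), Hells, which encodes a chromatin remodeller, Tipin (0.527) and Mcm4, another helicase subunit. For Tipin they were Atad2 (0.563), Mcm6, Dut, which keeps uracil out of DNA, Dek, a chromatin protein, and Hells. For Atad2 they were Tipin, Dut, Dnmt1, which copies DNA methylation, and Hells, with Top2a at rank 9. For Nasp they were Dut (0.498), Dek, Atad2, Tipin and Rrm1, a subunit of ribonucleotide reductase. Top2a stood at rank 47 for Mcm6, 18 for Tipin and 16 for Nasp. The 4 genes were chosen by their weights in these same cells, where Hells, Mcm4 and Dut ranked beside them. Their likeness to one another and to those genes is thus a description only. In the later libraries the correlation ran from 0.03 to 0.13 for Mcm6 with Tipin and from 0.04 to 0.11 for Tipin with Atad2. For Nasp with Dut it was 0.04 in Kmt2d+/βgeo and -0.03 in wild type cells at day 2.

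Other replication genes, taken from lists that do not hold the 4, moved with them to different extents. Counts below are of genes lower by a log2 ratio of 1 or more, as were 6.74% of all genes at day 2 in Kmt2d+/βgeo and 5.56% in wild type cells, and 13.9% and 10.9% at day 8. All 6 nucleotide supply genes in the matrix were lower at day 2 and at day 8 in both genotypes. At day 2 in Kmt2d+/βgeo cells Dut stood at -2.13, Rrm1 at -2.26 and Tyms at -2.74, and at day 8 Dut was at -1.57. Of the origin licensing and helicase genes, 5 of 9 were lower at day 2 in Kmt2d+/βgeo and 3 of 9 in wild type cells, with Mcm7, another helicase subunit, at -1.33 and -1.34, Orc6, of the origin recognition complex, at -1.02 and -0.85, and Dbf4, the activator of the Cdc7 kinase, at -2.33 and -2.26. Of the fork protection and checkpoint genes, 5 of 9 and 3 of 7 were lower at day 2, with Topbp1 at -1.86 and -1.23, and Rpa1 and Rpa3, of the single-strand binding complex, at -0.86 and -0.59 in Kmt2d+/βgeo cells. By day 8 Rpa1 stood at 0.45 and 0.94, so Tipin was not alone among fork genes in standing higher at day 8 than at day 2. At day 4, 6.61% and 6.6% of all genes were lower. The counts were then 5 of 6 nucleotide supply and 3 of 9 origin licensing genes in each genotype. Fork protection counts were 5 of 9 and 1 of 7 at day 4, and 4 of 9 and 2 of 7 at day 8. Origin licensing counts at day 8 were 4 of 9 in each genotype.

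Polymerase and clamp loader genes were lower in 6 of 10 and 5 of 10 cases at day 2, with Rfc4 at -1.74 and -1.66, Rfc2 at -1.26 and -1.12, and Rfc1 at -0.75 and -0.62. Histone supply genes were lower in 6 of 11 and 3 of 10, with Hat1, a histone acetyltransferase, at -1.06 and -0.96, and the histone binders Rbbp7 and Rbbp4 at -0.58 and -0.21 in Kmt2d+/βgeo cells. Of the E2F and S-phase entry genes, 4 of 10 and 3 of 9 were lower, with Skp2 at -2.15 and -2.43, Tfdp1 at -0.82 and -0.65, and E2f5 at -0.06 and -0.29. In that list 1 of 10 was higher by as much at day 2 in Kmt2d+/βgeo cells, where 10.7% of all genes were. On days 4 and 8 it was 2 of 10 in Kmt2d+/βgeo and 2 of 9 in wild type cells, where 14.8% and 11.9% of all genes were on day 4, and 19.0% and 16.3% on day 8. Of the G2 and mitosis genes, 8 of 10 were lower in each genotype, among them Nucks1 at -2.28 and -1.78, with Arl6ip1 at -0.53 and -0.56. Of 5 cell-cycle exit genes, 1 was lower at day 2 in each genotype, and 2 were higher by as much at day 8 in Kmt2d+/βgeo and 0 in wild type cells, with median log2 ratios of 0.82 and 0.78. Olig2, the one gene of the oligodendrocyte lineage list in the matrix, stood at -1.90 and -3.15 at day 8. Counts of lower genes at day 4 were 4 of 10 in each genotype for polymerase genes, and 6 of 11 and 3 of 10 for histone supply genes. They were 4 of 10 and 3 of 9 for E2F genes, and 8 of 10 in each for G2 genes. Day 8 gave 8 of 10 and 5 of 10 for polymerase genes, and 6 of 11 and 3 of 10 for histone supply genes. E2F counts were then 4 of 10 and 4 of 9, and G2 counts 9 of 10 and 7 of 10.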

How the data were processed

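The 8 libraries were made with the 10x Chromium 3′ kit (v3), which attaches UMIs. The authors counted spliced molecules with alevin (Salmon 1.3.0) against GRCm38, removed outlier cells and cells with outlying doublet scores, and deposited log2 values of library-size normalised counts for 9140 genes. The deposited cell table gives total UMIs as an estimated count. The submitters' notes also name Seurat 3.2.2. The other 2 columns of that table were not used. The deposited log2 values were turned back to normalised counts, which summed to 8707 in each cell. In each cell the commonest normalised value was taken as the worth of 1 UMI, so all UMI counts of genes here are estimates. Of nonzero values, 86.8% were whole UMIs within 0.01. The values were rounded to whole UMIs before thinning. Cells were thinned to 3000 UMIs, leaving out 784 shallower cells. Alternatives changed the thinning, the scale, the filter, the Top2a cut (2 UMIs) and the embedding.

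Comparisons used log2 ratios of mean normalised counts, for genes that reached a mean of 0.1 in 1 of the libraries compared. Intervals are 95% Clopper-Pearson, Newcombe, Poisson or exact conditional. θ was built as in the study but without its alignment of samples, on phase lists from Seurat 5.3.0 and the replication and G2 lists, with periodic loess with a span of 0.3. Named genes were the 4 genes, Top2a, the 3 genes of highest day 0 mean in each replication list, and the 5 most correlated genes per gene, of which 1 is not reported here. Olig2 and Kmt2d were named after their values were seen. The 4 genes and the lists were chosen with earlier results of these data known. Pcna, Timeless and other listed genes had no row in the matrix. It held 11 of 22 listed origin licensing, 9 of 17 fork protection, 11 of 22 polymerase and 11 of 15 histone supply genes. It also held 6 of 10 nucleotide supply, 10 of 18 E2F, 10 of 27 G2 and mitosis and 5 of 10 cell-cycle exit genes. Scripts ran in Python 3.11.15 and were tested on simulated data.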

Additional observations from a re-analysis of the deposited data

Results flagged for a closer look

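The sign of the genotype difference was not the same on every day. Pooled log2 ratios of Kmt2d+/βgeo over wild type are given where their counting interval lay on 1 side of 0. For Mcm6 they were 0.16, 0.48 and -0.80 on days 0, 2 and 8. For Atad2 they were 0.32, 0.48 and -0.79 on the same days. For Nasp they were 0.42, -0.12 and -0.87. For Tipin they were 0.28, 0.34, -0.11 and 0.46 on days 0, 2, 4 and 8. The day 4 value rests on the libraries whose labels are in doubt, and without it the Tipin ratios had 1 sign. With 1 library per genotype and day, the difference between days was not tested.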

How the results depend on the processing

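Each genotype and day holds 1 library. The genotypes can be paired by day, and no test over these 4 pairs was run. Pooled UMIs gave the same counts of the 4 genes past a log2 ratio of 1 in all 14 comparisons, in both directions. The difference of mean log2 values, a compressed scale for sparse genes, gave fewer genes lower over day 0, with 1 at day 2, 0 at day 4 and 1 at day 8 in Kmt2d+/βgeo cells and 0 at each day in wild type cells. Fewer of all genes were lower on that scale too, 53 against 506 at day 2 and 193 against 1078 at day 8 in Kmt2d+/βgeo cells. A minimum mean of 0.5 lowered the counts of all genes by over 1.5 times in 13 of 14 comparisons in each direction, while the shares lower over day 0 became 8.08%, 8.08% and 17.0% on days 2, 4 and 8 in Kmt2d+/βgeo and 6.30%, 8.18% and 13.6% in wild type cells. By the difference of mean log2 values 0 of the 4 genes were lower from day 4 to day 8 in Kmt2d+/βgeo cells, and 0 higher from day 2 to day 4 in wild type cells. Thinned cells gave 1 gene higher from day 2 to day 4 in Kmt2d+/βgeo cells. The differences between Top2a cells and others that changed sign were Mcm6 in Kmt2d+/βgeo cells at day 4, at -2.92 points when thinned to 1500 UMIs, and Tipin in Kmt2d+/βgeo cells at day 8, at 8.76 points with no thinning and 4.63 when thinned to 1500. A cut at 2 Top2a UMIs moved 28 of the 32 differences. The positions along θ for Mcm6, Tipin, Atad2 and Nasp were 0.73π, 0.79π, 0.80π and 0.88π with a span of 0.5, and 0.72π, 0.79π, 0.84π and 0.79π with a span of 0.1, chosen after seeing the data. With these genes kept in the embedding they were 0.65π, 0.72π, 0.75π and 0.74π, and with the phase lists only they were 0.66π for Tipin, 0.69π for Atad2 and 0.67π for Nasp. The cause was not tested.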
